A study of Mus musculus with 6 samples.

Results

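The transcription factors that define the T helper lineages form a set of 9 genes: Tbx21, Eomes, Gata3, Rora, Foxp3, Ahr, Runx1, Runx2 and Runx3. They were chosen by name, with earlier results of these data known, and each was found by its symbol among the 13564 genes of the deposited normalized table. All 9 were also among the 13691 genes tested, which reached 10 counts in no fewer than 3 libraries. The libraries are from the progeny of naive CD4 T cells (CD4N cells, CD44-/low and Foxp3-) after 4 days of activation in vitro. The genotypes were Foxo1TKO (CD4-cre Foxo1 fl/fl, n = 3), in which the Cre is driven by Cd4 regulatory sequences and acts in T cells from the thymus onward, and Foxo1Ctrl (Foxo1 fl/fl without the Cre, n = 3). Mice of both genotypes were C57BL/6 and carried a Foxp3-GFP allele, which served to leave out regulatory T cells at the sort, and were 3 months old unless stated otherwise in the methods. Each culture held 50000 CD4N cells from lymph nodes per the labels (the methods give 10 times as many), soluble anti-CD3 (145-2C11, 0.1 µg/ml) and 250000 splenocytes of CD3eKO mice, which lack T cells. Neither source says whether splenocytes were removed before RNA extraction, or whether the 3 cultures of a genotype came from separate mice, so p-values measure the spread between these libraries.

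T helper cells take on distinct cytokine programs under the control of a few transcription factors that partly oppose one another. T-bet (encoded by Tbx21) and its T-box relative Eomes drive type 1 and cytotoxic programs, Gata3 drives the type 2 program, ROR factors (of which Rora encodes one) the Th17 program, and Foxp3 the regulatory program, while Ahr, a receptor for environmental and dietary ligands, acts in Th17 and Th22 cells. Runx factors bind DNA together with Cbfb and cooperate with or restrain the others, Runx3 with T-bet in Th1 and cytotoxic cells, Runx1 with Foxp3 in regulatory T cells.

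Each of the 3 Runx genes has a promoter in which the core motif read by Runx proteins (TGTGGT, searched on both strands) occurs as a close pair. These sequences are shown because the 3 genes share this element and took different courses in the cultures. They are RefSeq promoter windows on GRCm38.p6, each from 250 bases before to 50 bases after the annotated start, written 5′ to 3′ on the strand of the gene, with the motif, which here lies on the opposite strand, in capitals. The windows are Runx1 at its distal start (chr16:92826025-92826324, minus strand), Runx2 (chr17:44814578-44814877, minus strand) and Runx3 at its distal start (chr4:135120395-135120694, plus strand).
Runx1, distal start: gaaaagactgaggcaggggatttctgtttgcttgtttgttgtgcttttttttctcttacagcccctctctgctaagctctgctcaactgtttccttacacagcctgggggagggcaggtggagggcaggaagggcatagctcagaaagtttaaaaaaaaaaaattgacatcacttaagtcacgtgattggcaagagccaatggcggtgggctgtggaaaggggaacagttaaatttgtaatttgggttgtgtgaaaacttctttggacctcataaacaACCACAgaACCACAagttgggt
Runx2: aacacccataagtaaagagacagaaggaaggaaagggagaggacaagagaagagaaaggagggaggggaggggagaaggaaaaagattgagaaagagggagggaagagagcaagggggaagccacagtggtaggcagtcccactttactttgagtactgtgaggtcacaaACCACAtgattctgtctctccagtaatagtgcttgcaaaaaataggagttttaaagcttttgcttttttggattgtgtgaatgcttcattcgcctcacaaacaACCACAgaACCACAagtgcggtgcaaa
Runx3, distal start: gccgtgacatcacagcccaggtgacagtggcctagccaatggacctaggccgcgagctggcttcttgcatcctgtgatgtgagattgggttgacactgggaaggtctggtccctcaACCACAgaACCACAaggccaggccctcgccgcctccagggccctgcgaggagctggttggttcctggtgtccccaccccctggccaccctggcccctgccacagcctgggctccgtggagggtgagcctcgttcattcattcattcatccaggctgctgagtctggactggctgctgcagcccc
In all 3 windows the motif starts of the pair lay 8 bases apart on 1 strand. Of the 32851 RefSeq promoter windows, 7 held such a pair (0.0213%), these 3 among them. This spacing was chosen after these sequences were seen. At any spacing, 595 windows held 2 or more motifs (1.81%), and 5506 held the motif at least once (16.8%). The proximal windows of Runx1, 128745 bases downstream, and of Runx3, 31900 bases downstream, did not hold the motif. Windows were found for 8 members (11 windows), not for Ahr. None of the 11 held the Foxo motif TGTTTAC, which 3.65% of all windows hold, and none held the T-box motif GGTGTGA (3.98% of all windows). The GATA motif AGATAA (11.2% of all windows) occurred once, in the window of the second start of Foxp3, which also held the ROR motif AGGTCA (16.3% of all windows) at 2 positions. The ROR motif occurred in the Runx2 window too, and the short Ahr motif GCGTG (32.4% of all windows) in both Foxp3 windows, in that of Rora and in the proximal window of Runx1. These matches are of letters in these windows and say nothing about binding.

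**Figure D1:**
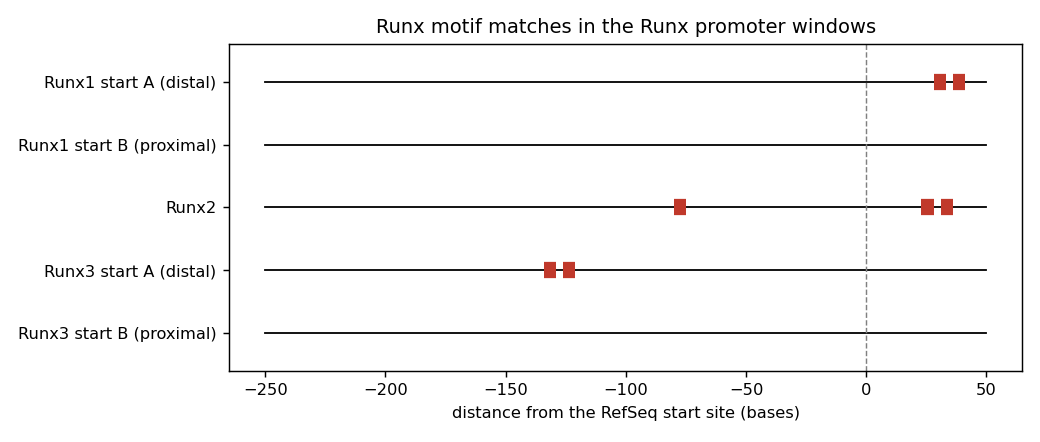
Matches of the Runx motif (red blocks) in the 5 RefSeq promoter windows of Runx1, Runx2 and Runx3. The horizontal axis is the distance in bases from the annotated start (dashed line), the black lines are the windows, and a pair of matches lies in both distal windows and in that of Runx2, which has a further match 80 bases before the start, while the proximal windows hold none.

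The libraries held between 14783890 and 19675447 expected counts, at least 99.88% of them in tested genes. Foxo1 itself, the targeted gene, had 46.1 to 114 normalized counts in the Foxo1TKO libraries and 1516 to 2266 in the Foxo1Ctrl libraries. T cell markers summed to between 188930 and 206585 normalized counts in Foxo1TKO and between 230860 and 265167 in Foxo1Ctrl libraries, without overlap. In RNA of a whole culture, fewer cells of a type and less RNA per cell cannot be told apart. Within each genotype the libraries also differed along the GC content of genes: the correlation of a gene's deviation from its genotype mean with its GC content, across 13679 genes, was 0.33, -0.17 and -0.20 in replicates 1 to 3 of Foxo1TKO and 0.27, -0.36 and 0.20 in those of Foxo1Ctrl.

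Of the 9 factors, 4 were called different between the genotypes, 3 higher in Foxo1TKO (Eomes, Rora and Runx1) and 1 lower (Runx3). A call required an adjusted p under 0.05 (quasi-likelihood F test of edgeR, Benjamini-Hochberg over all 13691 genes), and a fold change over 1.5. By this rule 23.0% of all genes were called, 11.1% as higher and 11.8% as lower, against 44.4% of the 9 factors (33.3% higher, 11.1% lower). The values of 5 factors did not overlap between the genotypes, these 4 and Foxp3 (55.6%), as against 42.7% of all genes. The median log2 fold change was 0.49 over the factors and 0.01 over all genes. With 9 members these shares are counts, not a test of the set.

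**Figure D2:**
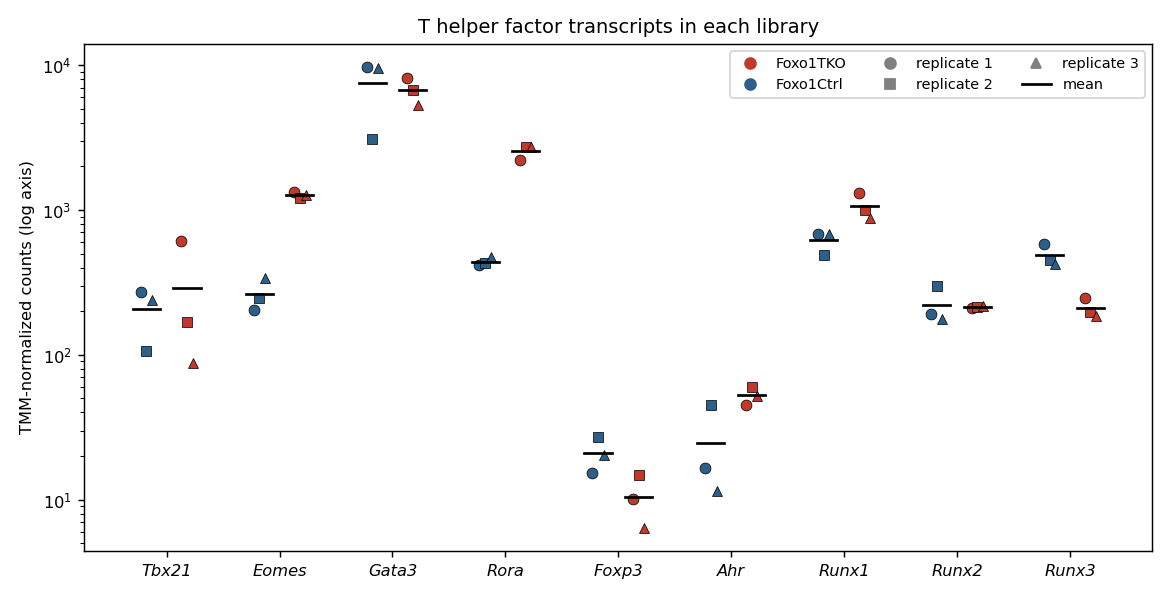
TMM-normalized counts (log axis) of the 9 factors in each of the 6 libraries, with Foxo1Ctrl in blue, Foxo1TKO in red, a marker shape for each replicate and a bar at the mean of each genotype. Rora and Eomes separate most widely, Runx3 separates in the opposite direction, and the replicates of Tbx21 in Foxo1TKO spread from 88.3 to 609.

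The T-box factors behaved differently from each other. Eomes (ENSMUSG00000032446, chromosome 9, 118478212 to 118486132 on GRCm38, plus strand) had 1330, 1217 and 1261 normalized counts in Foxo1TKO libraries 1 to 3 and 202, 247 and 341 in Foxo1Ctrl libraries 1 to 3. Every Foxo1TKO library was far above every Foxo1Ctrl library, and the Foxo1TKO libraries differed from each other by at most 1.09-fold. Eomes was up-regulated by 2.26 on the log2 scale (standard error 0.22, adjusted p = 0.000425 in edgeR's quasi-likelihood test, Benjamini-Hochberg adjusted), a ratio of means of 4.82. In TPM, RSEM's level per transcript length, Eomes passed from 5.29 ± 1.63 in Foxo1Ctrl to 26.8 ± 3.29 in Foxo1TKO (SD, n = 3), which moved it from percentile 39.2 to percentile 68.8 of all tested genes. The antisense gene Gm33460 overlaps its exons, and the sources used here do not give the strand setting of the counting. NK cells also express Eomes and Tbx21. The 6 NK cell markers summed to between 76.6 and 93.0 normalized counts in Foxo1TKO and between 80.4 and 134.5 in Foxo1Ctrl libraries, with Klra8 at 0 in every library and none of the 3 that could be tested called.

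Tbx21 (ENSMUSG00000001444, chromosome 11, 97098071 to 97115331, minus strand) had 609, 169 and 88.3 normalized counts in Foxo1TKO and 271, 105 and 240 in Foxo1Ctrl libraries. The genotypes overlapped completely: the highest and the lowest of the 6 values were both Foxo1TKO libraries, 6.90-fold apart. The difference did not pass the test (log2 fold change 0.49, 95% interval -1.06 to 2.04, adjusted p = 0.645 in edgeR's quasi-likelihood test, Benjamini-Hochberg adjusted), and without Foxo1TKO replicate 1 it was -0.68. Tbx21 is rich in GC (59.3%, percentile 96.2 of tested genes), and its order within each genotype followed the GC trend of the libraries. After a correction for GC content the Foxo1TKO libraries had 476, 177 and 95.1 counts and the Foxo1Ctrl libraries 247, 141 and 222, still overlapping.

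Set against each other within a library, the T-box factors gave an Eomes to Tbx21 TPM ratio of 1.58, 5.32 and 10.3 in Foxo1TKO and 0.54, 1.68 and 1.01 in Foxo1Ctrl libraries. The mean log2 ratio was 2.19 higher in Foxo1TKO, but Foxo1TKO replicate 1 lay below Foxo1Ctrl replicate 2 (two-sided exact permutation p = 0.2, 0.3 after Benjamini-Hochberg adjustment over 6 ratios). Permuting 3 libraries against 3 cannot give a p under 0.1.

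Gata3 (ENSMUSG00000015619, chromosome 2, 9857078 to 9890034, minus strand) was the most abundant of the 9 factors per length in both genotypes. It had 8174, 6709 and 5305 normalized counts in Foxo1TKO and 9695, 3112 and 9595 in Foxo1Ctrl libraries. Foxo1Ctrl replicate 2 was lowest and the other Foxo1Ctrl libraries highest, so the genotypes overlapped. No difference was detected beyond this spread (log2 fold change -0.15, 95% interval -1.07 to 0.77, adjusted p = 0.823 in edgeR's quasi-likelihood test, Benjamini-Hochberg adjusted), and its sign turned under several alternatives. The protein-coding gene 9230102O04Rik on the same strand and the antisense gene Gm13256 overlap its exons. The Gata3 to Tbx21 TPM ratio was 28.9 ± 17.97 in Foxo1TKO and 26.7 ± 4.00 in Foxo1Ctrl cells (SD, n = 3), a mean log2 difference of -0.13 (exact permutation p = 0.9, also after adjustment). Without Foxo1TKO replicate 1 this log2 difference was 0.50.

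Rora, which encodes RORα, rose most among the 9 factors. The gene (ENSMUSG00000032238, chromosome 9, 68653786 to 69388246, plus strand) had 2213, 2706 and 2729 normalized counts in Foxo1TKO and 417, 431 and 471 in Foxo1Ctrl libraries. The lowest Foxo1TKO library was above the highest Foxo1Ctrl library by a wide margin, and the largest ratio within a genotype was 1.23. The gene was up-regulated by 2.53 on the log2 scale (standard error 0.16, adjusted p = 7.71e-05 in edgeR's quasi-likelihood test, Benjamini-Hochberg adjusted), a ratio of means of 5.80. In TPM, Rora passed from 10.3 ± 1.77 to 64.2 ± 3.23 (SD, n = 3), from percentile 51.9 to percentile 82.7 of tested genes, and became the second of the 9 factors after Gata3. The antisense gene Gm15511 overlaps its exons. Its ratio to Tbx21 in TPM was 3.16, 14.03 and 27.2 in Foxo1TKO and 1.263, 3.33 and 1.71 in Foxo1Ctrl libraries. These ratios overlapped, with Foxo1TKO replicate 1 just below Foxo1Ctrl replicate 2 (log2 difference 2.46, exact permutation p = 0.2, 0.3 after adjustment).

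Foxp3 and Ahr were rare transcripts in these cultures. Foxp3 (ENSMUSG00000039521, chromosome X, 7573644 to 7595245, plus strand) was counted 12, 17 and 6 times in Foxo1TKO and 13, 24 and 21 times in Foxo1Ctrl libraries, which is 10.1, 14.8 and 6.39 against 15.4, 27.2 and 20.2 normalized counts. The Foxo1TKO libraries were all lower, though the highest of them nearly met the lowest Foxo1Ctrl library, and cells expressing Foxp3 had been left out at the sort. The difference did not pass the test (log2 fold change -0.93, 95% interval -1.94 to 0.08, adjusted p = 0.165 in edgeR's quasi-likelihood test, Benjamini-Hochberg adjusted). Flicr on the same strand and Ccdc22, Gm36995 and Ppp1r3f on the other overlap Foxp3 exons, and how the reads divide between them was not tested. Its TPM ratio to Tbx21 was 0.011, 0.060 and 0.047 in Foxo1TKO and 0.040, 0.24 and 0.056 in Foxo1Ctrl libraries, which overlapped (log2 difference -1.37, exact permutation p = 0.5, 0.6 after adjustment). This log2 difference was -0.61 without Foxo1TKO replicate 1, -0.60 without Foxo1Ctrl replicate 2 and between -1.88 and -1.63 without any other library. The effective length by which RSEM scaled Foxp3 was 2564 bases in Foxo1Ctrl replicate 2 and 3403 to 3410 bases in the other libraries. With rounded counts in place of TPM the log2 difference of the ratio was -1.19.

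Ahr (ENSMUSG00000019256, chromosome 12, 35497974 to 35535038, minus strand) had 45.3, 60.0 and 52.1 normalized counts in Foxo1TKO and 16.6, 45.4 and 11.5 in Foxo1Ctrl libraries. Foxo1Ctrl replicate 2 reached the Foxo1TKO range and the other Foxo1Ctrl libraries stayed well below it. The difference did not pass the test (log2 fold change 1.08, 95% interval -0.07 to 2.23, adjusted p = 0.160 in edgeR's quasi-likelihood test, Benjamini-Hochberg adjusted). Without Foxo1Ctrl replicate 2 it did (1.85, adjusted p = 0.0129 in edgeR, Benjamini-Hochberg adjusted), as it did in limma on the authors' normalized signal + 1 (1.71, adjusted p = 0.0496) and in edgeR scaled to Cd3 counts (adjusted p = 0.0361), which moved the median of all genes to 0.35. The effective length that RSEM assigned to Ahr, which depends on the isoforms the reads are given to, was 4645, 4101 and 3376 bases in Foxo1TKO and 5386, 5387 and 5379 bases in Foxo1Ctrl libraries, without overlap. Per length, Ahr was separated between the genotypes, with 0.72, 0.97 and 0.96 TPM in Foxo1TKO and 0.21, 0.48 and 0.15 TPM in Foxo1Ctrl libraries. The lincRNA Gm48236 lies antisense over its exons, and its part in these values was not tested.

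The 3 Runx genes took 3 courses. Runx3 (ENSMUSG00000070691, chromosome 4, 135120652 to 135177990, plus strand) had 246, 197 and 185 normalized counts in Foxo1TKO and 583, 449 and 426 in Foxo1Ctrl libraries. Each Foxo1TKO library was below each Foxo1Ctrl library. Runx3 was down-regulated, by -1.21 on the log2 scale (standard error 0.21, adjusted p = 0.0054 in edgeR's quasi-likelihood test, Benjamini-Hochberg adjusted), a level 2.32 times as high in Foxo1Ctrl. It stayed called in all 6 fits without 1 library and in all 13 other fits. In edgeR scaled to Cd3 counts Runx3 only just passed (-0.87, adjusted p = 0.0485 in the quasi-likelihood test, Benjamini-Hochberg adjusted). After the GC correction its values were 204.4, 203.8 and 199 against 531, 558 and 405 counts. No other annotated gene overlaps its exons.

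Runx1 (ENSMUSG00000022952, chromosome 16, 92601466 to 92826149, minus strand) moved the other way, with 1301, 993 and 885 normalized counts in Foxo1TKO and 681, 489 and 685 in Foxo1Ctrl libraries. The Foxo1TKO counts were all higher, with the lowest of them 885 against a highest Foxo1Ctrl count of 685. The log2 fold change of 0.78 passed the test (standard error 0.21, adjusted p = 0.0336 in edgeR's quasi-likelihood test, Benjamini-Hochberg adjusted), a ratio of means of 1.71. This call was not stable: it was lost without Foxo1TKO replicate 1 (0.59, adjusted p = 0.0869) or 2 (0.83, 0.0852) and without Foxo1Ctrl replicate 1 (0.85, 0.0717), 2 (0.65, 0.0595) or 3 (0.86, 0.0662), in edgeR, Benjamini-Hochberg adjusted. It was also lost where effective lengths enter the fit (0.69, adjusted p = 0.157, edgeR), and in TPM the genotypes overlapped, with 27.0, 17.2 and 12.3 in Foxo1TKO and 14.5, 6.08 and 13.4 in Foxo1Ctrl libraries. The antisense gene Gm26626 overlaps its exons.

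Runx2 (ENSMUSG00000039153, chromosome 17, 44495987 to 44814797, minus strand), best known from bone, had 211, 213 and 218 normalized counts in Foxo1TKO and 190, 297 and 178 in Foxo1Ctrl libraries. The Foxo1TKO values all lay inside the Foxo1Ctrl range. The log2 fold change was -0.05 (95% interval -0.61 to 0.52, adjusted p = 0.908 in edgeR's quasi-likelihood test, Benjamini-Hochberg adjusted). Runx2os1 lies antisense over its exons.

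Within the family, the balance between Runx1 and Runx3 was compared within each library. Runx1 made up 77.9, 73.1 and 69.1% of the summed Runx TPM in Foxo1TKO and 51.8, 38.0 and 56.6% in Foxo1Ctrl libraries. Runx3 made up 14.02, 14.9 and 17.4% in Foxo1TKO and 39.5, 43.2 and 33.2% in Foxo1Ctrl libraries. Neither share overlapped between the genotypes, whereas that of Runx2 did, at 11.2 ± 2.76% and 12.6 ± 5.44% (SD, n = 3). The shares are parts of the summed TPM, so they do not vary independently of each other. The sum itself was 25.3 ± 8.62 TPM in Foxo1TKO and 22.6 ± 6.10 TPM in Foxo1Ctrl cells, which overlapped. The Runx1 to Runx3 TPM ratio was 5.56, 4.90 and 3.96 in Foxo1TKO and 1.31, 0.88 and 1.71 in Foxo1Ctrl libraries, a mean log2 difference of 1.92 (exact permutation p = 0.1, the smallest this design allows, and 0.3 after adjustment over 6 ratios). The Runx2 to Runx3 ratio was 0.72 ± 0.12 in Foxo1TKO and 0.32 ± 0.11 in Foxo1Ctrl cells, also without overlap (log2 difference 1.20, exact permutation p = 0.1, 0.3 after adjustment).

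**Figure D3:**
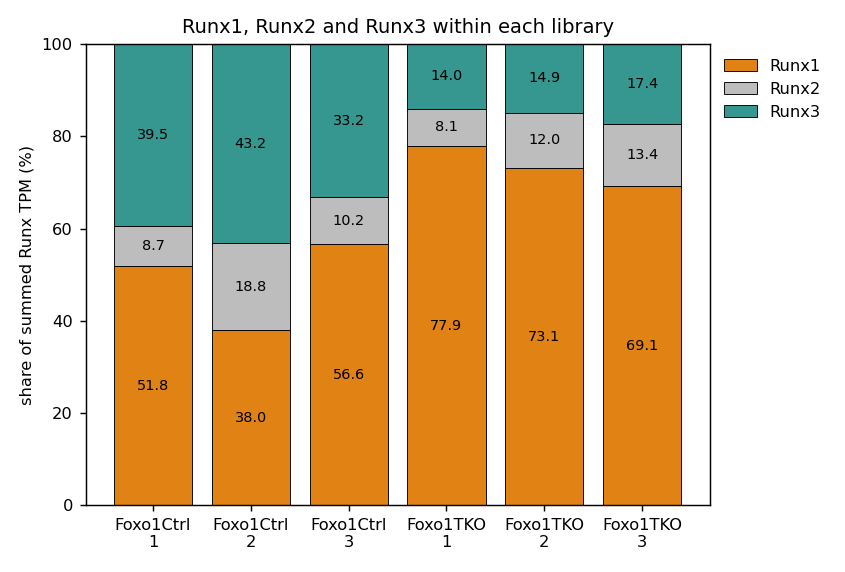
Share of each Runx gene in the summed Runx TPM of a library (percent, stacked bars from 0 to 100, one bar per library). Runx1 takes 69.1 to 77.9% in the 3 Foxo1TKO libraries and 38.0 to 56.6% in the 3 Foxo1Ctrl libraries, and Runx3 14.02 to 17.4% and 33.2 to 43.2%.

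The order of the 9 factors by mean TPM thus differed. In Foxo1Ctrl cells it was Gata3, Runx1, Rora, Runx3, Tbx21, Eomes, Runx2, Foxp3 and Ahr. In Foxo1TKO cells it was Gata3, Rora, Eomes, Runx1, Tbx21, Runx3, Runx2, Ahr and Foxp3. Neighbours in these orders are not all distinct. Each neighbouring pair from Runx1 down to Eomes in Foxo1Ctrl overlapped over the 3 libraries, as did Foxp3 and Ahr, whereas in Foxo1TKO the overlapping pairs were Eomes and Runx1, Runx1 and Tbx21, and Tbx21 and Runx3. Gata3 was above the next factor in each library of both genotypes, and Rora was above Eomes in each Foxo1TKO library.

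**Figure D4:**
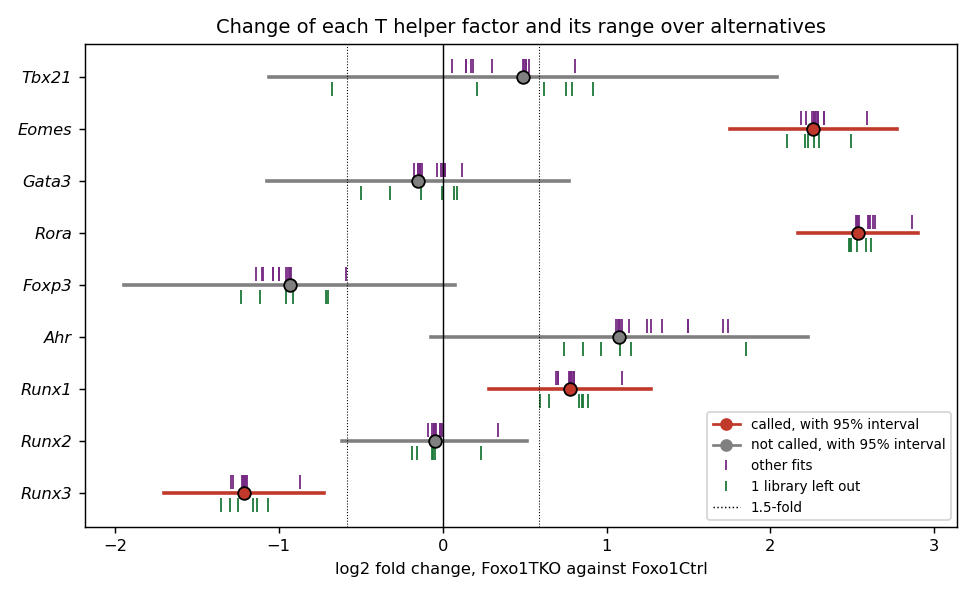
Log2 fold change of each factor in Foxo1TKO against Foxo1Ctrl cells (circle) with its 95% interval from edgeR, red where called and grey where not, with green ticks for the 6 fits without 1 library and purple ticks for 13 other fits. The ticks of Eomes, Rora, Runx1, Ahr, Foxp3 and Runx3 all lie beyond the dotted 1.5-fold lines, those of Runx1 and Foxp3 in part barely so, while those of Tbx21, Gata3 and Runx2 lie on both sides of 0.

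Genes of the T helper programs, partners and targets of the factors, and their relatives with clock genes were described from 9 lists. Of 127 distinct genes, 91 could be tested, and 17 were called higher and 26 lower in Foxo1TKO cells (47.3% called, against 23.0% of all genes), with a median log2 fold change of -0.12. Adjusted p-values in this and the following paragraphs are those of the edgeR quasi-likelihood test, Benjamini-Hochberg adjusted over all genes. The counts describe these lists, which were chosen with earlier results of these data known and were not tested as sets.

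Among 17 Th1 genes tested, 2 were higher and 7 lower (52.9% called, against 23.0% of all genes, median log2 fold change -0.34). Ifngr1, a chain of the interferon-γ receptor, had 3832 to 4552 normalized counts in Foxo1TKO and 43129 to 53148 in Foxo1Ctrl libraries (log2 fold change -3.49). Cxcr3, the chemokine receptor that T-bet induces, had 258 to 487 against 2908 to 3807 counts (-3.17). The granule protein gene Nkg7 went the other way, with 24873 to 34135 against 5031 to 9975 counts (2.17). Stat4, which transmits the IL-12 signal, was lower (-0.67, adjusted p = 0.00796 in edgeR, Benjamini-Hochberg adjusted).

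Of 7 cytotoxic genes linked to Eomes, 3 were higher and 1 lower (57.1% called, against 23.0% of all genes, median -0.29). Xcl1, a chemokine of cytotoxic cells, had 1328 to 2206 normalized counts in Foxo1TKO and 5.91 to 10.2 in Foxo1Ctrl libraries (log2 fold change 7.60). Crtam, a surface molecule of cytotoxic CD4 T cells, had 1219 to 1401 against 100.9 to 110 counts (3.603). Gzmb, which encodes granzyme B, fell, from 1181 to 2106 counts in Foxo1Ctrl to 121 to 489 in Foxo1TKO (-2.41). The list named for Eomes thus moved in both directions.

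Of the 14 Th2 genes tested, 4 were higher and 4 lower (57.1% called, against 23.0% of all genes, median -0.54). The cytokine genes Il4, Il5 and Il13 were too low to test. Il5 had 17.6, 5.22 and 20.2 normalized counts in Foxo1TKO libraries 1 to 3 and 0 in each Foxo1Ctrl library. Ccr8, a chemokine receptor of Th2 and regulatory cells, had 8379 to 10802 normalized counts in Foxo1TKO and 245 to 380 in Foxo1Ctrl libraries (log2 fold change 4.81). The transcription factor gene Bhlhe41 (-3.86) and Ecm1 (-2.46), which encodes a protein needed for Th2 cells to leave lymph nodes, were lower. Zfpm1, which encodes the Gata3 partner FOG-1, had 70.5 to 114 against 13.01 to 34.6 counts (2.04, adjusted p = 0.0120 in edgeR, Benjamini-Hochberg adjusted). Stat6, which transmits the IL-4 signal, had 364 to 1442 against 339 to 990 counts and did not pass the test (0.09).

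Among 9 Th17 genes tested, 3 were higher and 4 lower (77.8% called, against 23.0% of all genes, median 0.48). Il6ra, the IL-6 receptor chain, had 5.22 to 13.4 normalized counts in Foxo1TKO and 118 to 370 in Foxo1Ctrl libraries (log2 fold change -4.53). The cytokine gene Il21 was also lower (-3.61). Stat3, which transmits the IL-6 signal, had 8360 to 15848 against 2444 to 7085 counts, without overlap, and did not pass the test (1.07, adjusted p = 0.0992 in edgeR, Benjamini-Hochberg adjusted).

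All 15 regulatory T cell genes could be tested, and 2 were higher and 6 lower (53.3% called, against 23.0% of all genes, median -0.34). Ctla4, which encodes an inhibitory receptor, had 260 to 336 normalized counts in Foxo1TKO and 5071 to 5907 in Foxo1Ctrl libraries (log2 fold change -4.18). Nt5e, which encodes the ectonucleotidase CD73 (-3.28), and Gpr83 (-3.01) were lower too. The 2 genes called higher were Ikzf2, which encodes Helios, with 13373 to 24642 against 1703 to 3658 counts (2.68), and Lrrc32 (0.98). Il2ra, which encodes CD25, had 1577 to 2202 counts in Foxo1TKO and 1876 to 2017 in Foxo1Ctrl libraries (-0.02, standard error 0.16, adjusted p = 0.947 in edgeR, Benjamini-Hochberg adjusted).

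The remaining lists hold partners and relatives of the factors. Of 9 genes linked to Ahr (22.2% called, against 23.0% of all genes), Hsp90aa1, a chaperone of the receptor, was higher (0.90) and Tiparp, a target that restrains it, lower (-0.90), while its dimer partner Arnt did not pass the test (-0.37), with a list median of 0.32. Of 7 ROR relatives and clock genes (14.3% called), Clock was lower (-0.66) and no gene higher (median 0.18). Of 9 Runx partners and targets (22.2% called), Spp1 (3.88), which encodes osteopontin, and Csf2 (3.29), which encodes GM-CSF, were higher and none was lower (median 0.11). Cbfb, the partner of all Runx proteins, had 1106 to 2195 normalized counts in Foxo1TKO and 1186 to 1866 in Foxo1Ctrl libraries and did not pass the test (0.21, adjusted p = 0.639 in edgeR, Benjamini-Hochberg adjusted). Zbtb7b, which encodes the CD4 lineage factor ThPOK that opposes Runx3, did not pass it either (-0.44). Of 13 relatives of the T-box, GATA and Foxp families, 4 could be tested, and Gata1 (-2.33) and Foxp1 (-1.41) were lower (50% called, median -1.54).

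**Figure D5:**
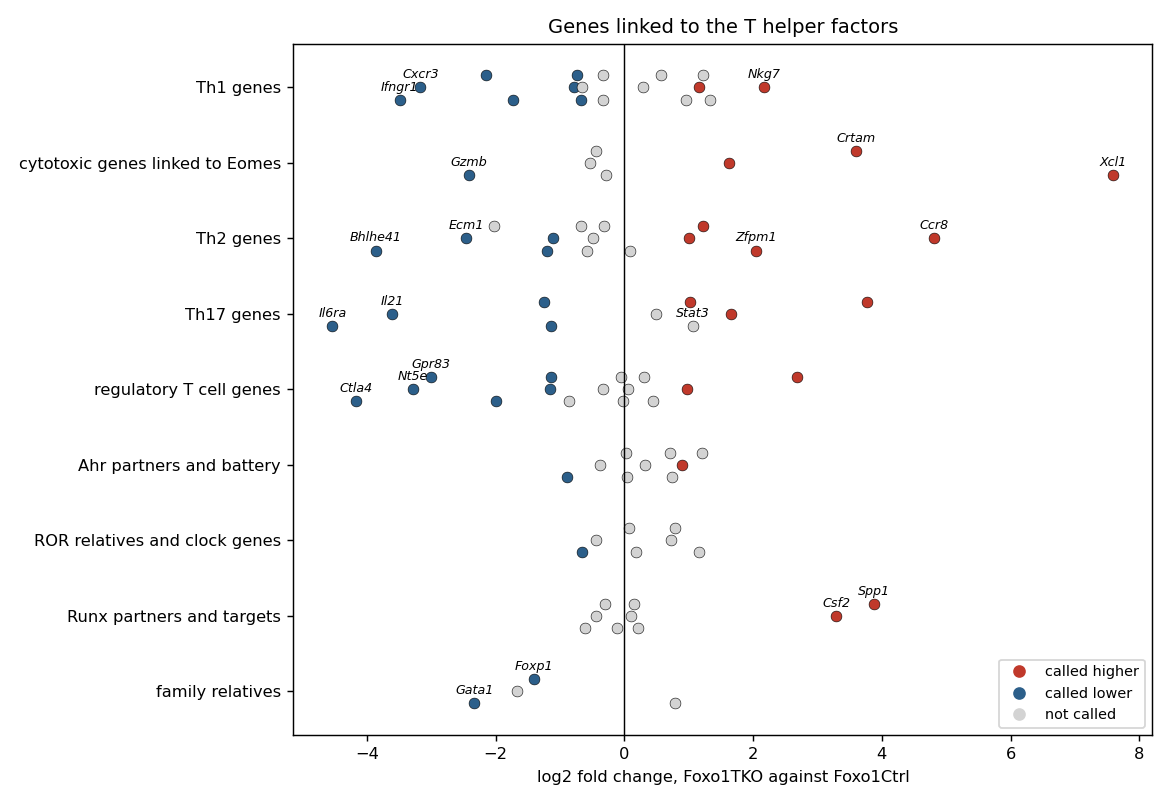
Log2 fold change in Foxo1TKO against Foxo1Ctrl cells of each tested gene of 9 lists linked to the factors, with 1 point per gene, red where called higher, blue where called lower and grey where not called (vertical offsets within a list carry no meaning). Called genes lie on both sides of 0 in the Th1, cytotoxic, Th2, Th17 and regulatory T cell lists.

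By its values over the 6 libraries, each factor was set beside 99 genes, the other factors and the genes of the lists, to find the one most like it (Pearson's r of log2 values, a description over libraries that share the genotype difference). Rora was closest to Crtam (r = 0.997), Eomes to Lrrc32 (0.991), which encodes a TGF-β anchor of regulatory T cells, and Runx3 to Cxcr3 (0.986). Runx1 was closest to Tnf (0.975) and Ahr to Hsp90ab1 (0.976). Of the factors that were not called, Tbx21 was closest to Cry2 (0.986) and Gata3 to Cyp1a1 (0.938). Runx2 was closest to Ptges3 (0.920) and Foxp3 to Cd8b1 (0.928).

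Markers of other cell types, some of which express Runx genes, Ahr or Rora, were also compared, and some of them differed between the genotypes. The splenocytes could bring such cells except T cells, which CD3eKO mice lack. B cell markers summed to between 142 and 194 normalized counts in Foxo1TKO and between 519 and 583 in Foxo1Ctrl libraries (4 of 6 tested were lower), and plasma cell markers to between 345 and 942 against 1642 and 2485 (2 of 2 lower). Dendritic cell markers summed to between 549 and 626 against 152 and 263 (1 of 3 higher, Itgax). Without Itgax the other 5 dendritic cell markers summed to between 145 and 202 against 152 and 262, which overlapped. Mast cell and basophil markers summed to between 72.9 and 147 against 18.1 and 21.3 (1 of 1 higher, Cpa3), with 1 of 4 at 0. Macrophage markers summed to between 68.7 and 100.04 against 44.2 and 55.6 and CD8 T cell markers to between 90.5 and 144 against 143 and 160 counts, with 0 of 1 tested called in each. Sums for gamma delta T cells (87.2 to 118 against 86.3 to 171), erythroid cells and megakaryocytes (123.5 to 235 against 163 to 262) and neutrophils (4.26 to 33.1 against 0 to 3.55) completed the lists, with none of the 1, 2 and 0 tested genes called. Of the 11 T cell markers tested, 2 were lower. Of all genes, 11.1% were called higher and 11.8% lower. The part of these cell types in the values of the 9 factors was not tested.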

How the data were processed

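RNA of activated CD4N cells was sequenced in 3 Foxo1TKO and 3 Foxo1Ctrl cultures, grouped by the labels. The authors aligned reads with STAR 2.7.6a to Ensembl GRCm38 and deposited RSEM 1.3.1 expected counts, TPM and effective lengths (in bases) per gene, not normalized between libraries, and a table of normalized signal, in which, as the values show, counts are divided by DESeq2 size factors and by relative effective lengths. Reads mapping to up to 10 loci were kept by the authors. Read trimming and strand setting are not given in the sources used here.

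Expected counts were rounded and tested with edgeR 4.0.16 (TMM, quasi-likelihood test, prior count 1, genotype as the only term) in R 4.3.3. TPM ratios were compared by a two-sided exact permutation test. The members and the gene lists were chosen with earlier results of these data known. The genes named are the 9 factors, Foxo1, up to 3 called genes of each list with the largest change, direct partners (Cbfb, Arnt, Zfpm1, Zbtb7b, Stat4, Stat6, Stat3, Il2ra), and for each factor the gene most like it. A gene that this rule names is not reported here. Others are cell type markers or overlapping genes, and Il4, Il5, Il13, Itgax, Ccr6, Il22 and Ikzf2 were named after their values were seen. Gene positions came from GENCODE M21 (GRCm38) and promoters from RefSeq (GRCm38.p6).

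Alternatives were DESeq2 1.42.0, limma 3.58.1 (voom, or the authors' signal), other size factors (including Cd3e, Cd3d and Cd3g counts), other filters, effective lengths, the replicate number as a block, and each library left out. A GC correction was added after the data were seen. The edgeR, DESeq2 and voom fits were tested on simulated counts. Figures were drawn with matplotlib 3.10.9.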

Additional observations from a re-analysis of the deposited data

How the results depend on the processing

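Eomes, Rora and Runx3 were called in the same direction under every alternative run: 13 other fits and 6 without 1 library. Over the fits without 1 library, the number of genes called ran from 1854 (without Foxo1TKO replicate 2; 2031 without Foxo1Ctrl replicate 1) to 3321, against 3144, the factors called from 3 to 4 and the list genes called from 31 to 45, against 43. The log2 fold change of Tbx21 ran from -0.68 to 0.92 over these fits, that of Gata3 from -0.50 to 0.087, that of Runx2 from -0.19 to 0.23, and the log2 differences of the Gata3 to Tbx21 and Foxp3 to Tbx21 ratios from -0.59 to 0.50 and from -1.88 to -0.60. Gata3 was at 0.0024 with limma-voom and at 0.016 with limma on the authors' normalized signal with a pseudocount of 1 or 0.5. Scaling to Cd3 counts moved the median of all genes to 0.35, and with it Gata3 to 0.12 and Runx2 to 0.34. Relative to that median they were at -0.23 and -0.01, and Ahr at 1.15. Runx1 missed the threshold with the authors' signal (0.71) and with effective lengths (0.69), and Ahr passed it with the signal + 1 (1.71) but not + 0.5. The causes of these changes were not tested. The replicate numbers were not treated as pairs in the main fit. The paper paired such cultures by experiment in its flow cytometry, and whether the replicate numbers mark such pairs is not known. Correlations of same-numbered libraries' deviations from their genotype means were 0.54, 0.30 and -0.22. Not every library correlated best with its own number, which does not settle whether they were paired. With the replicate number as a block, 3318 genes were called, 2969 of them among the 3144, and the same 4 of the 9 factors. With the GC correction added after the data were seen, 3388 genes were called, and 3485 with the block as well. Depth limits Foxp3, at 6 to 24 counts per library, and 3 libraries per genotype limit the exact tests to a p of 0.1.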
